A study of Mus musculus with 21 samples.

Results

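Branched-chain amino acid breakdown was described through 10 genes: Bcat2, Bckdha, Bckdhb, Dbt, Dld, Bckdk, Ppm1k, Ivd, Hibch and Acadsb. They were chosen by name as enzymes of the pathway and their regulators, and all 10 were found among the 19096 genes of the deposited gene matrix. The RNA came from heart tissue of 21 male C57BL/6NJ mice that were 8 to 10 weeks old when assigned to a diet for 10 weeks, and the series models heart failure in which ejection fraction is preserved, by combining a fatty diet with renin. Chow control (4 hearts) and chow renin (6 hearts) received chow, and high-fat control (6 hearts) and high-fat renin (5 hearts) were fed 60% of their calories as fat. Both renin groups were injected behind the eye with an adeno-associated virus (AAV) carrying renin, and hearts were taken 6 weeks after injection. The series text gives the controls a null vector, while their sample labels call them novirus, so which of these the controls received cannot be told from the labels. The promoter of the AAV and the organ that made the renin are not given in the sources used here. Each library is labelled as a separate mouse heart.

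Leucine, isoleucine and valine are the branched-chain amino acids, and the heart can oxidise them in mitochondria. The aminotransferase BCAT2 first moves the amino group away and leaves branched-chain keto acids. The branched-chain keto acid dehydrogenase complex then commits the keto acids to breakdown. Its E1 component is made of alpha and beta subunits (Bckdha and Bckdhb), its core E2 is DBT, and its E3 is DLD, which other dehydrogenase complexes use too. The kinase BCKDK phosphorylates E1 and switches the complex off, and the phosphatase PPM1K removes the phosphate and switches it on. After the complex the routes part: IVD acts on leucine, ACADSB on isoleucine and HIBCH on valine. Only transcripts were measured here, and neither phosphorylation nor flux was.

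Library totals were 18.7 to 21.4 M (mega) estimated reads in chow control and 22.8 to 29.3 M in the other groups, without overlap. All 10 members passed the filter on low counts and were among the 15216 genes tested. Levels are given as CPM, counts scaled to library size after TMM normalization, and differences between groups come from a single edgeR quasi-likelihood fit over all 21 libraries, as log2 fold changes with standard errors (SE). A gene was called when its p, adjusted over all genes tested by the Benjamini-Hochberg method, was under 0.05. To compare genes with each other, TPM values were used, which take account of transcript length. By mean TPM over 21 hearts Dld was highest (144 ± 12.3 SD), followed by Ivd (118 ± 17.6) and Bckdha (107 ± 13.7). Bcat2 (45.0 ± 5.98), Acadsb (40.1 ± 6.53), Hibch (38.7 ± 5.11), Bckdk (35.2 ± 2.26) and Bckdhb (31.1 ± 7.38) lay close together, and Dbt (14.6 ± 2.77) and Ppm1k (11.2 ± 3.05) were lowest. The tissue label was met by the markers: all 10 cardiomyocyte markers listed (among them Myh6, Tnnt2 and Ryr2) were detected and summed to between 49877 and 72362 CPM.

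In hearts with both the high-fat diet and renin, 7 of the 10 members and 8 of 31 other genes of the pathway were lower than in chow control. The 7 members were Bcat2, Bckdha, Bckdhb, Dbt, Ppm1k, Ivd and Acadsb, and 0 were higher, where 4.25% of all genes tested were called lower and 4.05% higher. The steepest falls were those of the phosphatase Ppm1k, to 53.5% of its chow control level, and of the E1 beta subunit Bckdhb, to 54.9%. Dld, Bckdk and Hibch did not pass. The median log2 fold change of the 10 members was -0.46, beside 0.01 for all genes tested.

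**Figure D1:**
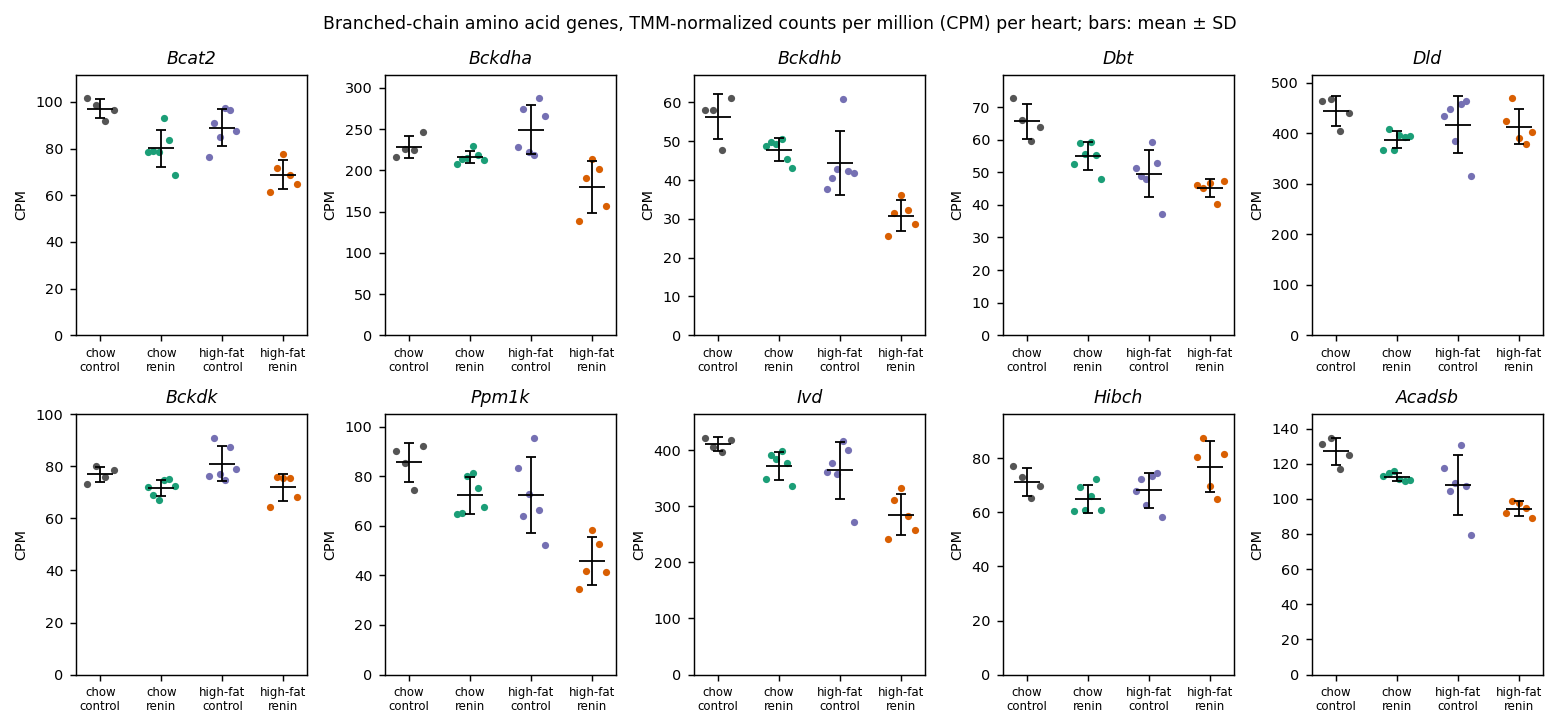
TMM-normalized CPM of the 10 members (vertical axes, each from 0) in each of 21 hearts by group, with points for hearts and bars for mean ± SD. High-fat renin hearts lay below every chow control heart for the 7 members that fell, and overlapped chow control for Dld, Bckdk and Hibch, where 5.07% of all genes tested had every high-fat renin heart below every chow control heart.

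Bcat2 (ENSMUSG00000030826, GRCm38 chromosome 7, 45570153 to 45589711), the mitochondrial aminotransferase at the entry of the pathway, measured 102, 98.7, 91.8 and 96.6 CPM in the 4 chow control hearts and 61.4, 71.5, 77.7, 68.6 and 64.7 in the 5 high-fat renin hearts. Chow renin ran from 68.7 over a median of 78.7 to 93.1, and high-fat control from 76.5 over 89.3 to 97.4. The high-fat renin hearts were all below the chow control hearts, and both other groups lay between them with overlap. Against chow control it fell by 0.50 in high-fat renin (log2, SE 0.08, adjusted p by edgeR 0.000944). Most of its message was a single protein-coding transcript, Bcat2-201, at 90.1% ± 1.70 (SD, n = 4) of the gene's TPM in chow control and 89.3% ± 3.16 (SD, n = 5) with both hits.

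The 2 subunits of E1 differed in size of change. Bckdha (ENSMUSG00000060376, chromosome 7, 25629946 to 25658981), which carries the phosphorylation site, measured 217, 226, 224 and 247 CPM in chow control and 138, 190, 214, 202 and 157 in high-fat renin. High-fat control was spread from 219 over 247 to 288, and chow renin from 208 over 214 to 229. The highest high-fat renin heart stood just under the lowest chow control heart, and the log2 fold change was -0.34 (SE 0.10, adjusted p by edgeR 0.037). This call was lost in 7 of 9 fits that each left out 1 library, at log2 fold changes of -0.27 to -0.37 and adjusted p of 0.0529 to 0.130: without any of chow control replicates 1 to 4 and without high-fat renin replicate 1, 2 or 5. With all libraries of both groups kept, it was lost with length-scaled TPM, when only these groups were fitted and when chow renin was left out (-0.35 in each, adjusted p 0.0529, 0.0968 and 0.0818). Bckdha shares part of its span with B3gnt8 on the opposite strand, whose reads came to 1.84% of those of Bckdha.

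Bckdhb (ENSMUSG00000032263, chromosome 9, 83925145 to 84124240), the beta subunit, measured 58.1, 58.0, 47.9 and 61.1 CPM in chow control and 25.5, 31.4, 36.3, 32.4 and 28.8 in high-fat renin. Chow renin ran from 43.0 over 49.1 to 50.7 and high-fat control from 37.7 over 42.1 to 60.9. Bckdhb was the only member whose high-fat renin hearts lay below all hearts of each other group. Of all genes tested, 5.07% had them below every chow control heart and 1.52% below every high-fat control heart. The share below every other group was not computed. It fell by 0.87 (log2, SE 0.11, adjusted p by edgeR 0.000141), and the adjusted p stayed between 8.21e-05 and 0.00141 when any 1 library was left out. Within each heart, the TPM of Bckdha divided by that of Bckdhb ran from 2.66 to 3.22 in chow control and from 3.69 to 4.40 in high-fat renin. In high-fat control the ratio was spread from 2.54 to 4.86, so the higher value was not limited to the renin group.

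Dbt (ENSMUSG00000000340, chromosome 3, 116513070 to 116549981), the E2 core, measured 72.7, 66.0, 59.5 and 64.0 CPM in chow control and 46.0, 45.1, 46.7, 40.4 and 47.4 in high-fat renin. All 6 chow renin hearts (48.1 to 59.3) and all 6 high-fat control hearts (37.2 to 59.4) were below the chow control hearts too. The shares of all genes so placed in these groups were not computed. With both hits the log2 fold change was -0.54 (SE 0.09, adjusted p by edgeR 0.00152). Dld (ENSMUSG00000020664, chromosome 12, 31331277 to 31351453), the E3 shared with the pyruvate and oxoglutarate dehydrogenase complexes, measured 463, 468, 404 and 440 CPM in chow control and 423, 469, 391, 379 and 403 in high-fat renin. These ranges overlapped almost wholly, and the log2 fold change of -0.10 (SE 0.09, adjusted p by edgeR 0.514) did not pass, with a 95% interval of -0.28 to 0.07. Within each heart, TPM of Dld was 8.52 to 9.22 times that of Dbt in chow control and 10.3 to 13.4 times in high-fat renin. It was 7.49 to 10.9 times in chow renin and 9.28 to 12.3 times in high-fat control, so the hearts on the fatty diet without renin were also all above chow control.

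The kinase and the phosphatase of the complex differed in size of change with both hits. Bckdk (ENSMUSG00000030802, chromosome 7, 127904082 to 127910221) measured 73.4, 80.2, 76.1 and 78.4 CPM in chow control and 64.5, 75.9, 75.7, 75.4 and 68.3 in high-fat renin. Its log2 fold change was -0.10 (SE 0.07, adjusted p by edgeR 0.387, 95% interval -0.23 to 0.03) and did not pass. Ppm1k (ENSMUSG00000037826, chromosome 6, 57506502 to 57535468) measured 90.2, 85.5, 74.7 and 92.3 CPM in chow control and 34.5, 41.9, 58.5, 52.7 and 41.3 in high-fat renin, without overlap. Its log2 fold change was -0.90 (SE 0.15, adjusted p by edgeR 0.00138), with adjusted p of 0.000549 to 0.00807 when any 1 library was left out. Of the 10 members it had the largest fall and the largest SE. Chow renin ran from 64.8 over 71.5 to 81.2 CPM, and high-fat control from 52.1 over 69.6 to 95.6, so high-fat renin overlapped high-fat control and not chow renin.

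The TPM of Bckdk divided by that of Ppm1k was taken in each heart. The ratio ran from 2.15 over a median of 2.39 to 2.93 in chow control and from 2.78 over 2.96 to 3.56 in chow renin. In high-fat control it ran from 2.16 over 3.37 to 4.65, and in high-fat renin from 3.34 over 4.43 to 5.29. On the log2 scale the difference between high-fat renin and chow control was 0.80 (two-sided exact permutation p 0.00794, the smallest that 126 regroupings allow, adjusted p 0.0216 over 5 pairs of groups, 5 of 5 hearts above all chow control hearts). High-fat renin exceeded chow renin by 0.48 (exact permutation p 0.00866, adjusted p 0.0216), and chow renin exceeded chow control by 0.32 (exact permutation p 0.0238, adjusted p 0.0397). The last of these was 0.14 (exact permutation, adjusted p 0.186) when CPM took the place of TPM. High-fat control differed from chow control by 0.43 (exact permutation p 0.1, adjusted p 0.121) and high-fat renin from high-fat control by 0.37 (exact permutation p 0.121, adjusted p 0.121), and neither passed. Without chow control replicate 1, the difference of high-fat renin from chow control had an adjusted p of 0.0893 at a value of 0.74, with fewer regroupings to draw on. The difference between chow renin and chow control lost its call in 9 of 10 such tests, all but the one without chow control replicate 3 (exact permutation, adjusted p 0.0529 to 0.139). High-fat renin against chow renin lost it in 4 of 11, without chow renin 1, 3, 4 or 5 (exact permutation, adjusted p 0.0529 to 0.0595), and high-fat control against chow control passed without high-fat control 4 (0.55, exact permutation, adjusted p 0.0496).

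**Figure D2:**
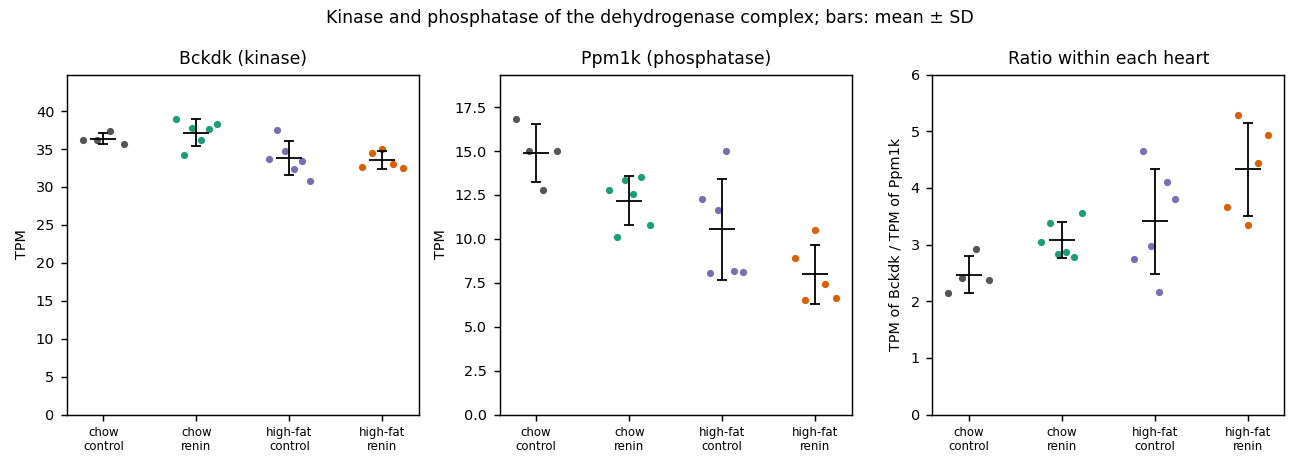
TPM of Bckdk, TPM of Ppm1k and their ratio within each heart (vertical axes, from 0) by group, with points for hearts and bars for mean ± SD. Ratios of high-fat renin hearts lay at 3.34 to 5.29 and those of chow control hearts at 2.15 to 2.93, while Bckdk itself kept within 30.8 to 39.0 TPM in all hearts. TPM of each gene counts all its transcripts, coding or not.

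The 3 enzymes after the complex did not move together. Ivd (ENSMUSG00000027332, chromosome 2, 118861954 to 118882909), the isovaleryl-CoA dehydrogenase of leucine breakdown, measured 423, 405, 397 and 419 CPM in chow control and 242, 311, 332, 283 and 258 in high-fat renin, and fell by 0.53 (log2, SE 0.10, adjusted p by edgeR 0.00232). Acadsb (ENSMUSG00000030861, chromosome 7, 131410601 to 131448944), the acyl-CoA dehydrogenase of isoleucine breakdown, measured 131, 135, 117 and 125 CPM in chow control and 91.7, 98.9, 97.7, 94.9 and 88.9 in high-fat renin, and fell by 0.43 (log2, SE 0.09, adjusted p by edgeR 0.00441). Both were without overlap between these groups. Hibch (ENSMUSG00000041426, chromosome 1, 52844929 to 52920986), the hydrolase of valine breakdown, measured 77.3, 73.0, 65.2 and 69.8 CPM in chow control and 80.5, 87.7, 69.9, 64.8 and 81.8 in high-fat renin. Of these 5 hearts 3 were above and 1 was below all chow control hearts, and the log2 fold change of 0.11 (SE 0.09, adjusted p by edgeR 0.482) did not pass.

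Transcript tables split each gene's signal over its transcripts, by TPM (per length) and by estimated reads. In Ivd the protein-coding transcripts held 64.4% of the gene's TPM in chow control and 64.1% with both hits, and their summed level was 87.8 ± 0.56 TPM (SD, n = 4) against 61.2 ± 7.07 (SD, n = 5). By reads, which weigh long transcripts more, the coding share of Ivd was 92.8% in chow control and 92.9% with both hits. In Acadsb most of the TPM was assigned to transcripts without a coding sequence, 72.4% in chow control and 76.8% in high-fat renin, mainly a retained-intron form, and coding transcripts held 31.4% and 33.4% of its reads. Its protein-coding transcripts were at 13.1 ± 6.52 TPM in chow control and 8.38 ± 2.86 in high-fat renin, a difference within the spread of the hearts, and the other forms at means of 33.6 and 27.6 TPM. Acadsb also lies within the span of Fgfr2 on the opposite strand, whose reads came to 1.04% of its own, and whether reads were assigned by strand is not given in the sources used here. Bckdk was divided among several protein-coding transcripts, its leading one holding 35.8% ± 3.52 of TPM in chow control and 34.3% ± 3.79 in high-fat renin, but 13.4% and 12.7% of reads.

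**Figure D3:**
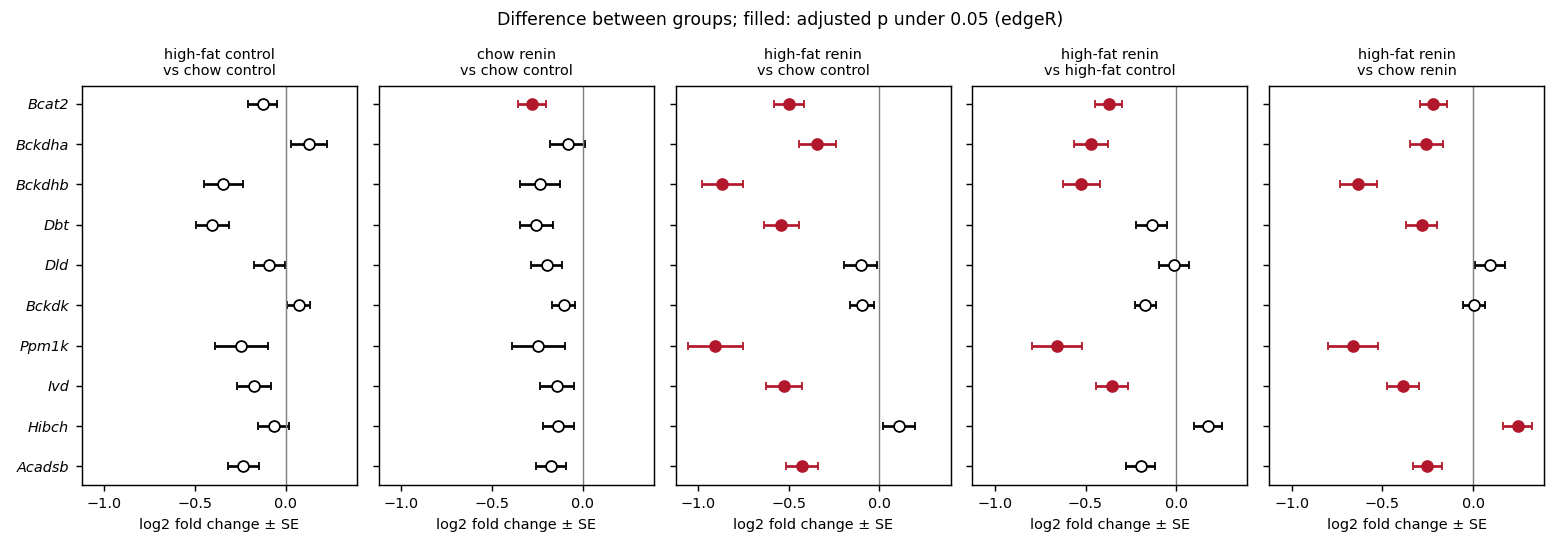
Log2 fold change (horizontal axis, points, bars ± SE) of each member in 5 comparisons, with filled points for an adjusted p under 0.05 by edgeR. Filled points number 0 for high-fat control and 1 for chow renin against chow control, and 7 for high-fat renin against chow control.

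Other measures also differed between high-fat renin and chow control. The summed cardiomyocyte markers were 59966 to 72362 CPM in chow control and 49877 to 56162 in high-fat renin, without overlap, and 7 of the 10 were called lower by edgeR. Myh6, the largest of them, was at 32912 ± 2614 and 23620 ± 2394 CPM (SD, n = 4 and 5), while Actn2 (2004 and 2062), Ryr2 (974 and 997) and Actc1 (8639 and 8164) did not pass. In chow renin the cardiomyocyte markers summed to 55012 to 58347 CPM, also below all chow control hearts. The 6 fibroblast markers summed to 505 to 881 CPM in chow control and 746 to 1172 in high-fat renin, with overlap. The 6 atrial markers tested summed to 179 to 1290 and 164 to 1024 CPM in these groups. In bulk tissue, fewer cells of a type and less RNA per cell cannot be told apart. A clock score was the mean log2 CPM of 9 clock genes on a day list less that of 5 on a night list. It was 3.37 to 3.59 in chow control, 2.76 to 3.14 in chow renin and 3.08 to 3.39 in high-fat control. It was 2.19, 2.77, 3.21, 3.20 and 2.80 in the 5 high-fat renin hearts. Some listed genes went against this direction in group means of chow control and high-fat renin. These were Bhlhe41 of the day list (48.5 and 50.3 CPM) and Nfil3 (8.69 and 8.10) and Cry1 (10.2 and 9.05) of the night list. With that score as a covariate, 0 of 10 members were called in high-fat renin against chow control (edgeR), and 0 of all 15216 genes, with 1337 at an unadjusted p under 0.05. All 7 that had been called remained below 0, from -0.09 for Bckdha to -0.57 for Bckdhb, and their adjusted p ranged from 0.236 to 0.890. Of the variance of the score 56.3% lay between groups, and the part of tissue makeup and time of collection in the falls was not tested. With every library thinned to the smallest total, 7 members were called.

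**Figure D4:**
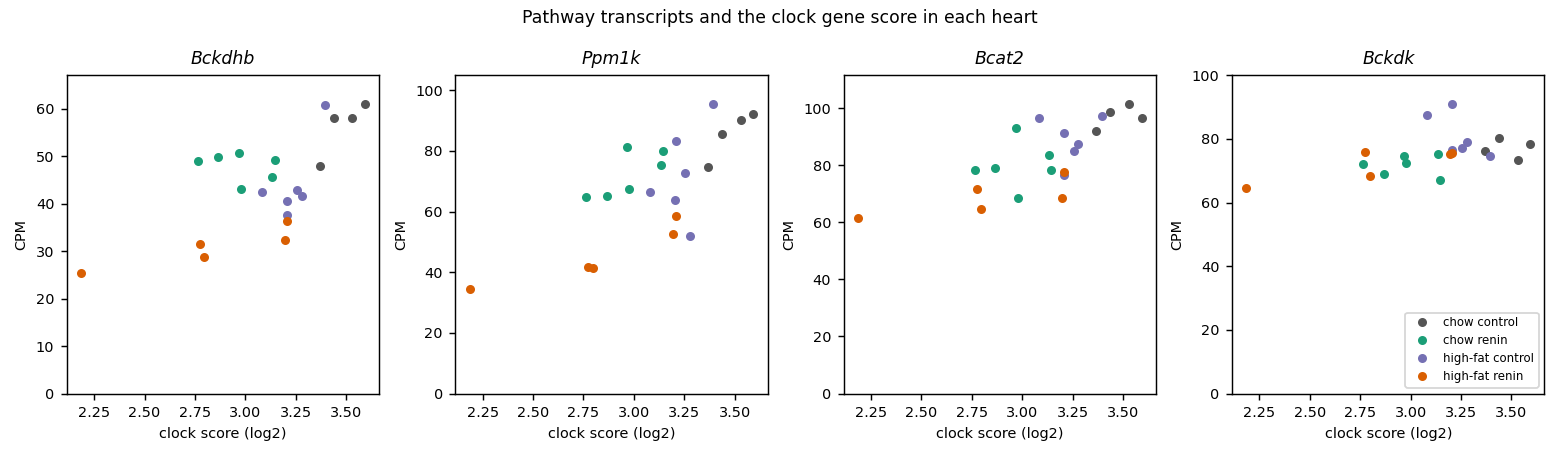
CPM of Bckdhb, Ppm1k, Bcat2 and Bckdk (vertical axes, from 0) against the clock score of each heart (horizontal axis, log2), coloured by group. High-fat renin hearts 3 and 4 had scores of 3.21 and 3.20, inside the 3.08 to 3.39 of high-fat control. Bckdhb, at 36.3 and 32.4 CPM, lay below all high-fat control hearts (37.7 or more), Ppm1k, at 58.5 and 52.7, inside their 52.1 to 95.6, Bcat2 inside their range in heart 3 (77.7) and below it in heart 4 (68.6), and Bckdk, at 75.7 and 75.4, inside it.

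When renin was added to the fatty diet, 5 of 10 members (Bcat2, Bckdha, Bckdhb, Ppm1k and Ivd) were lower than in high-fat control and 0 higher, where 5.08% of all genes tested were called lower and 6.07% higher. Log2 fold changes were -0.37 for Bcat2 (SE 0.07, adjusted p by edgeR 0.00303), -0.47 for Bckdha (SE 0.09, adjusted p 0.00289), -0.52 for Bckdhb (SE 0.10, adjusted p 0.0029), -0.66 for Ppm1k (SE 0.14, adjusted p 0.00512) and -0.35 for Ivd (SE 0.09, adjusted p 0.0142). Bckdha and Bckdhb were without overlap between the groups, where 1.52% of all genes had every high-fat renin heart below every high-fat control heart, and in all 5 genes 5 of 5 high-fat renin hearts were below the mean of high-fat control. Dbt (-0.14, adjusted p 0.326) and Acadsb (-0.20, adjusted p 0.114) did not pass, nor did Bckdk (-0.17, adjusted p 0.065), Dld (-0.01) or Hibch (0.17). Bckdk was called by DESeq2 (adjusted p 0.0367), with upper-quartile factors (0.0474) and without high-fat control 1 or 4 or high-fat renin 4, and Hibch without high-fat renin 4 (0.23, adjusted p 0.0471). The median of the members was -0.27, beside -0.01 for all genes. With the clock score 0 of 10 were called, with 30 called of all genes, and these 5 were at -0.28 (Bcat2), -0.32 (Bckdha), -0.34 (Bckdhb), -0.37 (Ppm1k) and -0.24 (Ivd). Ivd lost its call without high-fat renin replicate 1 or 5 (-0.31 and -0.32, adjusted p 0.0639 and 0.0534) and when only these groups were fitted (-0.36, adjusted p 0.0819). Acadsb passed without high-fat control replicate 6, the lowest heart of its group at 79.4 CPM (log2 fold change -0.27, adjusted p 0.00544).

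The high-fat diet alone gave 0 calls among the members by edgeR, where 0.0657% of all genes tested were called. At an unadjusted p under 0.05 there were 3 (Bckdhb, Dbt and Acadsb), where 11% of all genes were, and DESeq2 called 1, Dbt, and 0.848% of all genes. Dbt had the largest value, -0.40 (SE 0.09, adjusted p by edgeR 0.0984, 95% interval -0.58 to -0.22), with 6 of 6 high-fat control hearts under all chow control hearts. The share of all genes so placed was not computed. Bckdhb was at -0.34 (SE 0.11, adjusted p 0.243). High-fat control replicate 4 stood apart in Bckdhb, at 60.9 CPM beside 37.7 to 42.9 in the other 5 hearts, and without it Dbt and Bckdhb were called (log2 fold changes -0.46 and -0.46, adjusted p 0.0194 for both), as were 0.375% of all genes. With the central nervous score Bckdhb was called (-0.51, adjusted p by edgeR 0.0446), with 77 of all 15216 genes called in that fit. Bckdha and Bckdk had log2 fold changes of 0.13 and 0.07, and the median of the members was -0.15.

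With renin on chow, 1 member was lower than in chow control, Bcat2, where 3.36% of all genes were called lower and 10.1% higher. Its log2 fold change was -0.28 (SE 0.08, adjusted p by edgeR 0.017), with 5 of 6 chow renin hearts below all chow control hearts. The other 9 lay between -0.08 and -0.26 and did not pass, and the median over the 10 was -0.19, beside -0.03 for all genes. When only these 2 groups were fitted, 5 members were called lower (Bcat2, Bckdhb, Dbt, Dld and Acadsb), where 5.01% of all genes were in the same fit. With upper-quartile factors, with the clock or the central nervous score in the fit, and without chow control replicate 1 or 2 or chow renin replicate 1 or 3, 0 were called. The log2 fold change of Bcat2 was then -0.24 to -0.26 with upper-quartile factors or without 1 of these libraries, -0.16 with the clock score and -0.55 with the central nervous score. Without chow control replicate 3 Dbt was called besides Bcat2 (Dbt -0.30, adjusted p by edgeR 0.0408), where 682 of 15366 genes were called lower. The chow renin hearts also held more nervous tissue transcripts: 7 neuron markers summed to 151 to 245 CPM against 51.4 to 59.2 in chow control, all 5 oligodendrocyte markers to 91.6 to 155 against 28.1 to 32.0, and all 4 astrocyte markers to 73.6 to 129.8 against 16.3 to 22.7. A central nervous score, the mean log2 CPM of these 16 markers, was 3.85 ± 0.303 (SD, n = 6) in chow renin and 1.73 ± 0.205 (SD, n = 4) in chow control. With that score in the fit 35 of all 15216 genes were called, against 2048 without it. Its part in the differences was not tested.

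Under renin, the high-fat diet against chow gave 7 members lower (the same 7 genes as against chow control) and 1 higher, Hibch, where 12.8% of all genes tested were called lower and 9.8% higher. Both comparisons use the same high-fat renin hearts, so they are not independent. Log2 fold changes were -0.22 for Bcat2, -0.26 for Bckdha, -0.63 for Bckdhb (SE 0.10, adjusted p by edgeR 6.55e-05), -0.28 for Dbt, -0.66 for Ppm1k (SE 0.14, adjusted p 0.00128), -0.39 for Ivd (SE 0.09, adjusted p 0.00278) and -0.25 for Acadsb. Hibch was at 0.24 (SE 0.08, adjusted p 0.0288), with 3 of 5 hearts above all chow renin hearts, which ran from 60.4 over 63.5 to 72.4 CPM. Hibch lost its call in 6 of 11 fits without 1 library (chow renin 1, 3 or 6, high-fat renin 1, 2 or 5, adjusted p 0.0565 to 0.125), Bcat2 in 4 (chow renin 4, high-fat renin 1, 4 or 5), Bckdha in 6 (chow renin 2, 4 or 6, high-fat renin 1, 2 or 5) and Acadsb in 1 (high-fat renin 5). With all libraries, Hibch lost it with upper-quartile factors, without the filter, with length-scaled TPM, by limma, after thinning and with the clock score (0.19 to 0.23, adjusted p 0.0559 to 0.128). Length-scaled TPM also ended the calls of Bcat2, Bckdha and Acadsb, limma those of Bcat2 and Acadsb, the clock score those of Bcat2 and Bckdha, and a fit of only these groups that of Bckdha (-0.19 to -0.27, adjusted p 0.0592 to 0.131). Members called numbered 4 without high-fat renin replicate 5, 5 without replicate 1 and 5 with the clock score. Over all genes these fits called 2736 of 15170, 2473 of 15189 and 2973 of 15216. With the central nervous score 0 members were called, and 42 of all genes against 3440 without it. That score was 3.85 ± 0.303 (SD, n = 6) in chow renin and 2.09 ± 0.404 (SD, n = 5) in high-fat renin, and 90.2% of its variance lay between groups.

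The interaction (what renin did under the fatty diet less what it did on chow) gave 0 calls among the members by edgeR, where 10.4% of all genes tested were called. DESeq2 called 1, Bckdha (11.9% of all genes), and 3 members had an unadjusted p under 0.05, near the 23% of all genes: Bckdha (-0.39, SE 0.13, edgeR adjusted p 0.0699), Ppm1k (-0.42, SE 0.20, adjusted p 0.217) and Hibch (0.31, SE 0.12, adjusted p 0.0979). The falls seen with renin on the high-fat diet were thus not shown to differ from those on chow. With the clock score Bckdha (-0.45, adjusted p 0.0123) and Ppm1k (-0.51, adjusted p 0.0175) were called (13.6% of all genes were), and over all alternatives the adjusted p ranged from 0.0123 to 0.9995 for Bckdha and from 0.0175 to 0.9995 for Ppm1k. With the central nervous score Bckdhb was at 0.43 and Bcat2 at 0.20, beside -0.29 and -0.09 without it (adjusted p 0.9995 with it). Bckdha alone was called with upper-quartile factors (-0.44, adjusted p 0.0471) and without high-fat control replicate 4 or high-fat renin replicate 3, and Bckdha and Hibch without high-fat renin replicate 4.

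The authors' deposited table gives its own comparison for the high-fat diet with virus, whose reference group is not stated. Of the 10 members, 7 had an adjusted p under 0.05 in the authors' deposited table, as did 1296 of its 16122 genes with a value. The authors' deposited table lists log2 fold changes of -0.81 for Bckdhb (adjusted p 1.09e-09), -0.81 for Ppm1k (adjusted p 1.3e-05) and -0.07 for Dld (adjusted p 0.555).

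Other genes of the pathway were taken from a list of 31, all of which were tested. In high-fat renin against chow control 8 of 31 were lower and 0 higher, where 4.25% of all genes were called lower and 4.05% higher, and the median log2 fold change was -0.18. They came from every arm of breakdown: 2 of 4 genes of the leucine arm, 2 of 5 of the isoleucine arm, 1 of 3 of the valine arm and 3 of 7 of the propionate arm. Of 6 carriers, 5 regulators and the cytosolic aminotransferase, 0 were called by edgeR in this comparison, with 4 of 12 at an unadjusted p under 0.05 (23.9% of all genes were), and 0 by DESeq2, which called 10.6% of all genes. Esrra was called with length-scaled TPM, by limma on the deposited matrix and without chow control 3. Klf15 was called without high-fat renin 3, Klf15 and Mlxipl with the central nervous score, and Esrra, Mlxipl and Slc43a2 without high-fat renin 4.

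In the leucine arm Mccc1 and Mccc2, the subunits of methylcrotonyl-CoA carboxylase, fell by 0.36 (SE 0.08, adjusted p by edgeR 0.00651) and by 0.41 (log2, SE 0.06, adjusted p 0.000363), Mccc2 from 53.7 ± 2.87 to 40.4 ± 1.84 CPM (SD, n = 4 and 5). In the isoleucine arm Hsd17b10, a mitochondrial hydroxyacyl-CoA dehydrogenase, fell from 90.6 ± 5.25 to 63.5 ± 1.88 CPM (-0.51, SE 0.07, adjusted p 0.000124), and Echs1, an enoyl-CoA hydratase that fatty acid oxidation also uses, was at -0.31 (adjusted p 0.00537). Aldh6a1, the last dehydrogenase of valine breakdown, fell from 226 ± 21.7 to 157 ± 13.6 CPM (-0.52, SE 0.12, adjusted p 0.00795). The propionyl-CoA carboxylase genes Pcca (-0.29, adjusted p 0.0308) and Pccb (-0.27, adjusted p 0.0217) and Mmab (-0.34, adjusted p 0.0349), which makes the cobalamin cofactor of methylmalonyl-CoA mutase, were lower too. These last 3 lost their calls without 1 library: Pcca in 5 fits (chow control 1, 2 or 4, high-fat renin 1 or 5), Pccb in 4 (chow control 2 or 4, high-fat renin 1 or 5) and Mmab in 7 (any chow control, high-fat renin 1, 4 or 5). Calls also ended when chow renin was left out (Pcca, Pccb and Mmab), when only these groups were fitted (Pccb) and with length-scaled TPM or limma (Pcca), at adjusted p of 0.0511 to 0.135. With the clock score 0 of 31 were called, and the 8 were at -0.12 (Pccb) to -0.47 (Hsd17b10), with adjusted p of 0.114 to 0.763. Thus Ivd, Mccc1 and Mccc2 fell along the leucine arm, while Hibch did not pass and Aldh6a1 fell along the valine arm.

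When renin was added to the fatty diet 7 of the 31 were lower, where 5.08% of all genes were, Mccc1 (-0.24), Mccc2 (-0.29), Echs1 (-0.21), Hsd17b10 (-0.36), Pccb (-0.35), Mcee (-0.25) and Esrra (-0.25), with edgeR adjusted p of 0.0013 to 0.0315, and 1 was higher, the amino acid carrier Slc43a2 (0.54, adjusted p 0.00968). Echs1 and Mccc1 lost their calls when high-fat renin replicate 1 or 5, or high-fat control replicate 2, 4 or 5, was left out, and Mccc1 also without high-fat renin replicate 2, Mcee without high-fat renin replicate 1 (adjusted p 0.0701), and Esrra in 4 fits (high-fat control 5 or 6, high-fat renin 2 or 5). With the clock score 0 of 31 were called, the 7 at -0.13 (Echs1) to -0.33 (Hsd17b10) and Slc43a2 at 0.51 (adjusted p 0.0764 to 0.562). A fit of only these groups called 4 of 31 and lost Echs1, Mccc1, Mcee and Esrra. Echs1, Mccc1 and Esrra also lost their calls with chow renin left out, Echs1 and Mccc1 without the filter or with the central nervous score, Mccc1 by limma, and Mcee by limma or with length-scaled TPM. In high-fat control against chow control 0 of 31 were called by edgeR, with 8 at an unadjusted p under 0.05 (11% of all genes were), and 0 by DESeq2. In high-fat renin against chow renin 6 were lower, where 12.8% of all genes were: Slc7a5 (-0.50), Slc7a8 (-0.78), Bcat1 (-1.09), Mccc2 (-0.16), Hsd17b10 (-0.36) and Aldh6a1 (-0.33). With 1 library left out, Mccc2 lost its call in 5 fits (chow renin 3 or 4, high-fat renin 1, 3 or 5) and Aldh6a1 in 4 (chow renin 2, high-fat renin 1, 4 or 5), and with the central nervous score 0 of the 6 were called. Mccc2 also lost it with the clock score, length-scaled TPM, no filter or only these groups (adjusted p 0.0504 to 0.0766), and Slc7a5 by limma (0.0565).

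In chow renin against chow control 3 of 31 were higher and 2 lower, where 10.1% of all genes were called higher and 3.36% lower, so the share called higher was near that of all genes. Bcat1, the cytosolic aminotransferase, rose from 2.20 ± 0.457 to 4.75 ± 0.852 CPM (SD, n = 4 and 6; log2 fold change 1.11, SE 0.19, edgeR adjusted p 0.000132), and the carriers Slc7a5 and Slc7a8 rose by 0.60 (adjusted p 0.0116) and by 0.54 (adjusted p 0.046) on the log2 scale. Mccc2 (-0.26, adjusted p 0.00226) and Esrra, the estrogen-related receptor alpha (-0.27, adjusted p 0.0195), were lower. Without 1 library, Slc7a5 lost its call in 2 fits (chow control 2 or 4), Slc7a8 in 7 (any chow control, chow renin 1, 2 or 4) and Esrra in 4 (chow control 1 or 2, chow renin 3 or 5). Once the central nervous score entered the fit the 3 rises were at 0.11 (Bcat1), -0.12 (Slc7a5) and 0.01 (Slc7a8), with adjusted p of 0.967 to 0.996. Both falls lost their calls there too (Mccc2 -0.27, adjusted p 0.671, and Esrra -0.13, adjusted p 0.926). The clock score left 1 of 31 called, Bcat1. With length-scaled TPM and by limma the 3 rises were not called (adjusted p 0.0507 to 0.0995), with Bcat1 at 0.68 and 0.41, nor was Slc7a8 without the filter or after thinning. The interaction called 2 of the 31, where 7.3% of all genes were called lower: Bcat1 (-1.03, adjusted p 0.00927) and Slc7a8 (-0.85, adjusted p 0.0258). Slc7a8 lost that call in 2 fits without 1 library (chow control 2, high-fat renin 2, adjusted p 0.0514 to 0.0622) and after thinning (0.0804). Length-scaled TPM and limma called neither, with Bcat1 at -0.75 and -0.43 and Slc7a8 at -0.82 and -0.42 (adjusted p 0.0503 to 0.223).

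Klf15, a transcription factor known to regulate this pathway in heart, was not called by edgeR over all 21 libraries in any of the 6 comparisons. On chow it measured 45.8 ± 6.55 CPM in controls and 41.0 ± 7.77 with renin, and on the fatty diet 45.3 ± 8.18 in controls and 34.6 ± 6.23 with renin (SD, n = 4, 6, 6 and 5). It was at -0.40 in high-fat renin against chow control (SE 0.16, adjusted p by edgeR 0.122) and at -0.39 against high-fat control (SE 0.14, adjusted p 0.0849). DESeq2 called it against high-fat control (adjusted p 0.0437), as did edgeR there without high-fat control 6 or high-fat renin 3 (0.0346 and 0.0224). Against chow control it was called without high-fat renin 3 (-0.52, adjusted p 0.0367) and with the central nervous score (-0.54, adjusted p 0.0319). Slc25a44, the mitochondrial carrier of branched-chain amino acids, lay between 21.8 and 23.3 CPM in all 4 group means, with log2 fold changes from -0.10 to 0.09 and 0 calls in 6 comparisons.

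**Figure D5:**
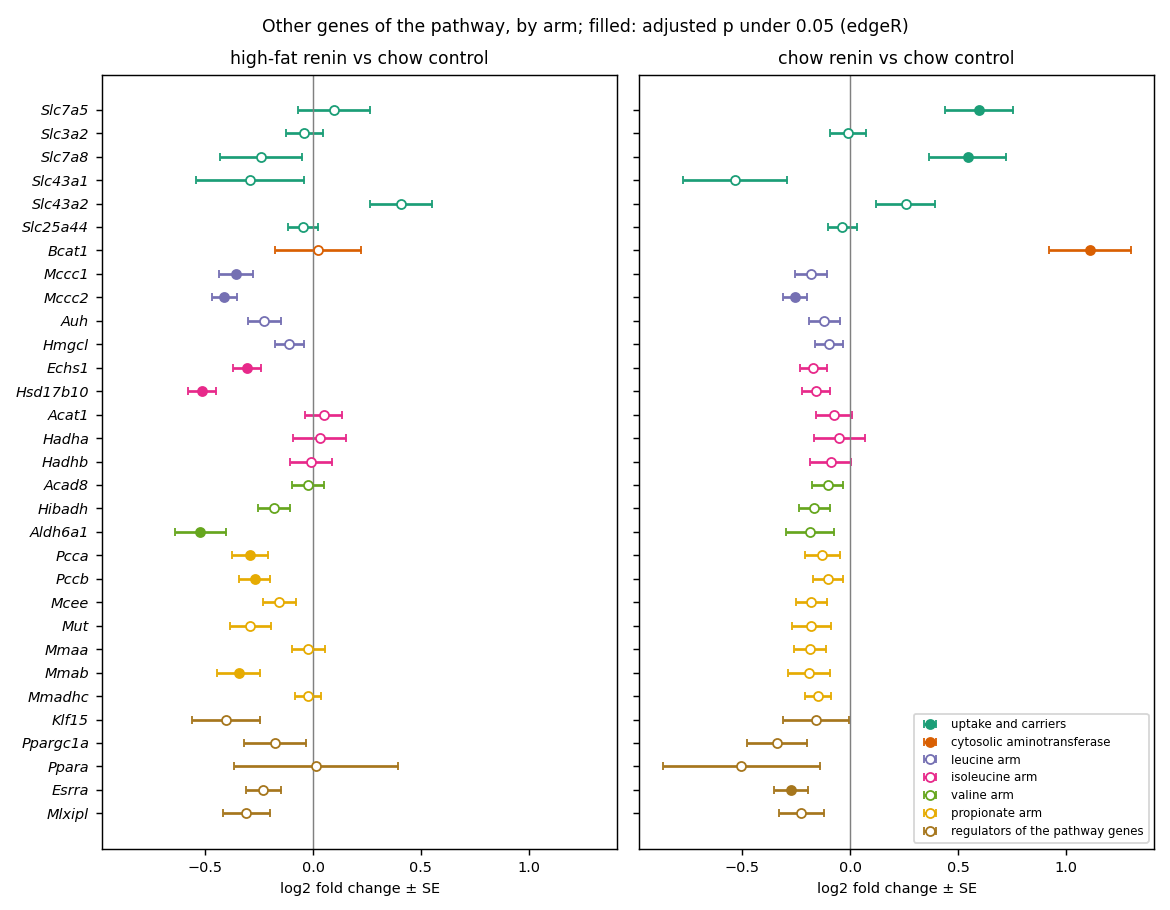
Log2 fold change (horizontal axis, points, bars ± SE) of 31 other pathway genes, coloured by arm, in both hits and in renin alone against chow control, with filled points for an adjusted p under 0.05 by edgeR. On the left 8 points are filled, all below 0, and on the right 5 are, with Bcat1 at 1.11.

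Among 10 genes of other complexes that use Dld, 1, Dhtkd1, was lower (4.25% of all genes were) in high-fat renin against chow control (-0.69, SE 0.16, edgeR adjusted p 0.0113; with length-scaled TPM -0.35, adjusted p 0.455; by limma -0.26, adjusted p 0.514; with the clock score -0.64, adjusted p 0.470; without chow control replicate 2, adjusted p 0.0572). In chow renin against chow control 3 were lower (3.36% of all genes were), Pdhb (-0.20), Dlat (-0.25) and Dlst (-0.24), with adjusted p of 0.0103 to 0.0424. Pdhx, the E3-binding protein of pyruvate dehydrogenase, was the single one called in the next 3 tests, all by edgeR. It was higher in high-fat renin than in high-fat control (0.34, adjusted p 0.0462), where 6.07% of all genes were called higher. Against chow renin it was higher too (0.36, adjusted p 0.0186), where 9.8% were. It was also higher in the interaction (0.53, adjusted p 0.0353), where 478 of 15216 genes were called higher. Calls were lost without 1 library for Pdhb and Dlat (chow control 1, 2 or 4, chow renin 1, 3, 4, 5 or 6) and for Dlst (chow control 1 or 2, chow renin 1 or 3). With the central nervous score all 3 lost their calls (-0.22 to -0.25, adjusted p 0.764 to 0.844), and Pdhb and Dlat did so in most other settings as well (9 and 8 settings with all libraries, that score included). Pdhx lost its calls without high-fat control 3, 4, 5 or 6 or high-fat renin 1, 2 or 5 in the first comparison, without chow renin 1 or 3 or high-fat renin 1 or 2 in the second, and in 12 fits of the interaction, with adjusted p of 0.0519 to 0.104. With all libraries it lost them in 11 settings in the first (adjusted p 0.0506 to 0.735), with the central nervous score in the second, and in 5 settings in the interaction (adjusted p 0.0532 to 0.9995).

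With group means removed, the correlation of each member with the mean z-score of the 10, which holds the member itself, was lowest for Bckdha (r 0.34) and Bckdk (0.43) and highest for Ivd (0.93), with Hibch at 0.60. Pairs of members then ran from -0.25 for Bckdha and Dbt to 0.83 for Dld and Hibch. Over 21 libraries, which share groups and normalization, the Pearson r of log2 CPM was 0.91 between Ppm1k and Ivd and 0.90 between Bckdhb and Ppm1k (0.73 and 0.68 with group means removed), and -0.41 between Bckdha and Hibch (-0.22 with group means removed). As a description, the genes outside the lists most like the mean z-score of the members were Aldh4a1 of proline breakdown (r 0.96, 0.92 with group means removed), the pyruvate dehydrogenase kinase Pdk2 (0.94 and 0.85), the mitochondrial aspartate aminotransferase Got2 (0.94 and 0.91), the muscle glycogen phosphorylase Pygm (0.90 and 0.86) and Tcaim (0.90 and 0.79). The most unlike were Col5a2, a collagen (-0.90 and -0.80), Dynll1 (-0.89 and -0.86), Fstl1 (-0.87 and -0.83), Prkg1 (-0.87 and -0.63) and the matricellular gene Postn (-0.85 and -0.77).

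Promoters were read from RefSeq on GRCm38.p6, where 9 of 10 members had an entry of 300 bases around a start site, Bcat2 and Bckdhb 2 each. The 250 bases before the start are shown for Bckdhb and Ppm1k, the members with the largest falls, and for Bckdk, the kinase that did not pass. They lie at chr9:83924887-83925136 (plus strand), chr6:57535488-57535737 (minus strand) and chr7:127903823-127904072 (plus strand), and capitals mark a GC box or a KLF box.
Bckdhb: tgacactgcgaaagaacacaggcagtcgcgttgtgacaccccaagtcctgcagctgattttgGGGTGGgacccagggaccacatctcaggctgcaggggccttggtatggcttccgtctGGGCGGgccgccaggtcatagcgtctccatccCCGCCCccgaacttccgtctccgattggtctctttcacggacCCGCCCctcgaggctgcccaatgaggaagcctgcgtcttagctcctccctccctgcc
Ppm1k: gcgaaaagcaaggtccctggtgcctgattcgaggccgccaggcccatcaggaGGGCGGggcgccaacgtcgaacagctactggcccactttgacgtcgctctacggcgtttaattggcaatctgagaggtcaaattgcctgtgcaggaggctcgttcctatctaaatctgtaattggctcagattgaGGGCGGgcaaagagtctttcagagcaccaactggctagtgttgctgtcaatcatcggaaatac
Bckdk: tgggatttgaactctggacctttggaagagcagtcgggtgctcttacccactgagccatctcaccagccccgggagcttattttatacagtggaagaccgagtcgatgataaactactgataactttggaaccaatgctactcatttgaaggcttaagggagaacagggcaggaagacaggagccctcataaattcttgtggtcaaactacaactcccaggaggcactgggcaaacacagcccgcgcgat

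The motifs searched, on both strands of the 300 bases, were the E-box CACGTG of clock factors, the D-box TTATGTAA, the estrogen-related receptor site TNAAGGTCA, a KLF box CCACCC and a GC box GGGCGG. The GC box was in 4 of 9 members (Bckdhb, Ppm1k, Hibch and Acadsb) and in 35.7% of all 32851 promoters, and the KLF box in 3 of 9 (Bcat2, Bckdhb and Ivd) and in 31.5%. By entry these were 4 and 3 of 11. The printed Bckdhb entry had 3 GC boxes and 1 KLF box and Ppm1k 2 GC boxes, while Bckdk and the other Bckdhb entry, at chr9:83948531-83948830, had neither, and 1 of the 2 Bcat2 entries held the KLF box. The E-box, D-box and receptor site were in 0 of 9 members, beside 7.15%, 0.938% and 1.28% of all promoters. These counts describe letters in the window only.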

How the data were processed

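RNA-seq of 21 mouse hearts was analysed, in 4 groups taken from the sample labels. Per the submitters' processing notes, Salmon 1.10.2 and DESeq2 1.40.2 were used. The authors deposited per-library transcript tables of estimated counts and TPM, per the file headers, and a gene matrix of signal with their own log2 fold change and adjusted p-value. The scaling of the signal and strandedness are not given in the sources used here.

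Of 119215 transcripts, 98.0% matched GENCODE M21 (GRCm38), and unmatched ones held up to 0.925% of reads. Estimated counts were summed per gene and rounded, in place of raw counts. In edgeR 4.0.16 (R 4.3.3), filterByExpr kept 15216 genes, TMM factors were 0.886 to 1.09, and 1 quasi-likelihood model held all 21 libraries. Totals of 18.7 to 29.3 M reads limit precision by counting error only. Alternatives used DESeq2 1.42.0, limma 3.58.1 with log2(signal + 1) and the settings listed at the end, and the fit was tested on simulated data. The 10 members, all values of the listed genes called in any comparison, Bcat1, Klf15 and Slc25a44, and the 5 genes most and 5 least like the members are named. Mlxipl, Myh6, Actn2, Ryr2 and Actc1 were named after their values were seen. Members and lists were chosen with earlier results of these data known. P-values of edgeR weigh group differences against a spread estimated over all 21 libraries, and exact permutation p-values count regroupings of hearts.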

Additional observations from a re-analysis of the deposited data

Results flagged for a closer look

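Of 44 group and measure pairs looked at (10 members and the kinase to phosphatase ratio in 4 groups), 1 had a heart far from the rest by Dixon's criterion, which chance meets in about 1 in 20 groups: Bckdhb in high-fat control, with its highest heart (replicate 4) at 60.9 CPM. The effect of renin differed between the diets, by the interaction in edgeR, for 3 genes that are no members: Bcat1 (-1.03, adjusted p 0.00927), Slc7a8 (-0.85, adjusted p 0.0258) and Pdhx (0.53, adjusted p 0.0353). None of these 3 passed once the central nervous score entered the fit (0.06, -0.26 and 0.20, adjusted p 0.9995 for each).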

How the results depend on the processing

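Counts of members called were recomputed under each setting. In high-fat renin against chow control 12 of 13 settings other than leaving out a library gave 6 or 7 calls, and the clock score gave 0; against high-fat control 11 of 13 gave 5 or 6, a fit of only those groups 4 and the clock score 0. In high-fat renin against chow renin, length-scaled TPM gave 4, limma on the deposited matrix 5, the clock score 5 and the central nervous score 0. In chow renin against chow control, upper-quartile factors and both scores gave 0 and a fit of only those groups 5. DESeq2 and the central nervous score gave 1 in high-fat control against chow control. In the interaction, upper-quartile factors and DESeq2 gave 1 and the clock score 2. Leaving out 1 library gave 6 to 7, 0 to 2, 0 to 2, 4 to 7, 4 to 8 and 0 to 2 calls in high-fat renin, chow renin and high-fat control against chow control, renin on the fatty diet, the diet under renin, and the interaction.

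The log2 ratio of Bckdk to Ppm1k in chow renin against chow control was 0.14 by CPM (adjusted p 0.186). Without 1 library it ranged from 0.72 to 0.89 for high-fat renin, 0.26 to 0.41 for chow renin and 0.33 to 0.55 for high-fat control against chow control, and from 0.40 to 0.56 for high-fat renin against chow renin. With the central nervous score, among genes called in that comparison the sign turned for Bcat2 (0.0062) and Slc7a5 (0.11) in high-fat renin against chow renin, Slc7a5 (-0.12) in chow renin against chow control and Bcat1 (0.057) in the interaction; the cause was not tested.

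With the replicate number as a block (replicate block), members called were 7, 1, 0, 5, 8 and 0 in the same order, so no member count moved, and Esrra lost its call for renin on the fatty diet (adjusted p 0.0583), while Mccc1 (0.0386) and Mmab (0.0400) gained one for the diet under renin. Libraries with the same number had a median correlation of deviations of 0.08 (28 pairs, -0.23 to 0.42), and 7 of 21 matched best with their own number, so the numbers were not taken to pair hearts. Depth was lowest in chow control; thinning to 18.6 M reads gave 7, 1, 0, 5, 7 and 0. Upper-quartile factors moved the balance of calls over all genes, from 1537 higher and 511 lower to 1625 and 264 in chow renin against chow control, from 1491 and 1949 to 844 and 2247 for the diet under renin, from 478 and 1111 to 281 and 1200 in the interaction, from 923 and 773 to 819 and 911 for renin on the fatty diet, where the majority turned, and from 616 and 646 to 554 and 754 for both hits against chow control.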
